A study of Mus musculus with 6 samples.

Results

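The 8 desmosome genes followed here were Dsp, Dsg2, Dsc2, Pkp1, Pkp2, Pkp3, Jup and Perp, chosen by gene symbol from the 41388 genes of the count data. All 8 were found, and all 8 passed the filter on low counts that left 12192 genes for testing. None of the 8 passed the test between tumor initiating cells (TICs) and the other tumor cells of mouse mammary carcinomas. Log2 fold changes in TICs were below 0 in 7 of 8 genes, where 50.3% of all tested genes lay below 0. The members were chosen with earlier results of these data known, and the signs of Dsp, Dsc2, Pkp1 and Pkp2 turned when certain samples were left out. The largest step among the well counted members was that of Perp, whose normalised level was 158 ± 31.1 CPM (read counts scaled to library size) in TICs and 263 ± 21 CPM in the other tumor cells (SD, n = 3), and this step did not pass the correction for all genes (adjusted p = 0.356, edgeR's exactTest with Benjamini-Hochberg adjustment).

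RNA-seq was performed on sorted cells from mammary tumors of FVB/N-TgN(MMTVPyVT)634Mul/J mice (MMTV-PyMT), in which the MMTV (mouse mammary tumor virus) promoter drives the polyoma middle T antigen in the mammary epithelium. Both groups came from carriers of this transgene aged 12 weeks, and no treatment is named. TICs were CD24+CD90+CD45- cells (3 samples), and the comparison group, called non-CD24+CD90+ tumor cells, was negative for CD24, for CD90 or for both and was also depleted of CD45+ cells (3 samples), whereas the series design describes it as negative for both markers. These are named the other tumor cells from here on. For each library 120 ng of RNA was pooled from 4 sorts, and apart from viability the sort used CD24, CD90 and CD45, with no separate marker against fibroblasts, pericytes or endothelial cells. Total counts ranged from 6781239 to 8450038 in the other tumor cells and from 8114933 to 9100552 in TICs, where 3 counts correspond to 0.33 to 0.442 CPM. No 2 samples of a group were alike within sampling noise, with a chi-square per degree of freedom over genes of 46.5 to 56.8 between samples of the other tumor cells and of 76.7 to 114 between TICs, where the 2 larger values both involved TIC replicate 3.

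Desmosomes are the button-like junctions that tie the keratin filaments of neighbouring epithelial cells together. Desmogleins and desmocollins are their transmembrane cadherins, plakoglobin and the plakophilins are armadillo proteins that bind the cadherin tails, and desmoplakin links this plaque to keratin. PERP is a tetraspan membrane protein of the desmosome that was first known as a target of p53 and is also controlled by p63. In the mammary gland desmosomes join luminal cells to each other and to the myoepithelial cells beneath them, and the junction is commonly dismantled when epithelial cells become mesenchymal.

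The promoter table held the plaque genes Dsp and Jup, and their 250 bases upstream of the RefSeq gene start are shown because these genes encode the plaque components that desmosomes share across tissues. The gene coordinates given further below are from GENCODE. The Dsp window abuts its GENCODE start, whereas the RefSeq start of Jup lies somewhat upstream of the GENCODE start. Both sequences are from RefSeq on GRCm38.p6 and are written 5′ to 3′ on the strand of the gene, with capitals for each GC box (GGGCGG, or CCGCCC on the other strand).
Dsp, chr13:38151044-38151293, plus strand: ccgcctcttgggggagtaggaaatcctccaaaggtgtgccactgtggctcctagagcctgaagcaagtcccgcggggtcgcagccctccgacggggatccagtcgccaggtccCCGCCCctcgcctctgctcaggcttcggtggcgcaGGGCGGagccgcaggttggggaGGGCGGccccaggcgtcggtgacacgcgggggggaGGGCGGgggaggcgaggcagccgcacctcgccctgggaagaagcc
Jup, chr11:100397791-100398040, minus strand: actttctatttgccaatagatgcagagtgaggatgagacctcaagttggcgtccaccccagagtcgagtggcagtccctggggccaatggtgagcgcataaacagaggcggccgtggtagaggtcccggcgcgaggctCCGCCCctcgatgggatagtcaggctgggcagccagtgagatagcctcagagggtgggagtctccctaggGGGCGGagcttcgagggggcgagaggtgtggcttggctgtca
The Dsp window held 4 GC boxes and the Jup window 2, and 32.7% of 32817 such windows in the table held at least 1. The GC content was 72.4% for Dsp and 62.0% for Jup, where the median window had 52.4%. Neither window held the E-box CACCTG (17.2% of all windows, both strands searched) or the letters TATAAA (12.4%). These matches describe the sequence and were not tested as binding sites.

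To compare levels between genes, normalised CPM were divided by the exon length of each gene in kb. This length was the union of all annotated exons, 1952 bases for Perp and 9659 for Dsp, whichever transcripts the cells made. The order depends on this division, since in CPM alone Jup had the highest mean of the members in both groups. In the other tumor cells the order was Perp (135 ± 10.8 CPM per kb), Pkp3 (87.1 ± 10.6), Jup (76.5 ± 15.8), Dsg2 (32.0 ± 10.9), Dsp (9.33 ± 7.98), Pkp2 (7.19 ± 0.526), Dsc2 (2.02 ± 1.87) and Pkp1 (1.38 ± 1.8). In TICs the first 6 places were the same, with Perp at 81.1 ± 16.0, Pkp3 at 63.5 ± 13.0, Jup at 61.6 ± 9.59, Dsg2 at 20.9 ± 4.98, Dsp at 7.54 ± 0.608 and Pkp2 at 6.93 ± 1.13 CPM per kb, followed by Pkp1 at 1.57 ± 2.32 and Dsc2 at 1.30 ± 1.14. Several neighbours in this order did not differ beyond the spread of their samples. The sample ranges of Pkp3 and Jup, of Dsp and Pkp2, and of Dsc2 and Pkp1 overlapped in both groups, and those of Perp and Pkp3 overlapped in TICs.

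**Figure D1:**
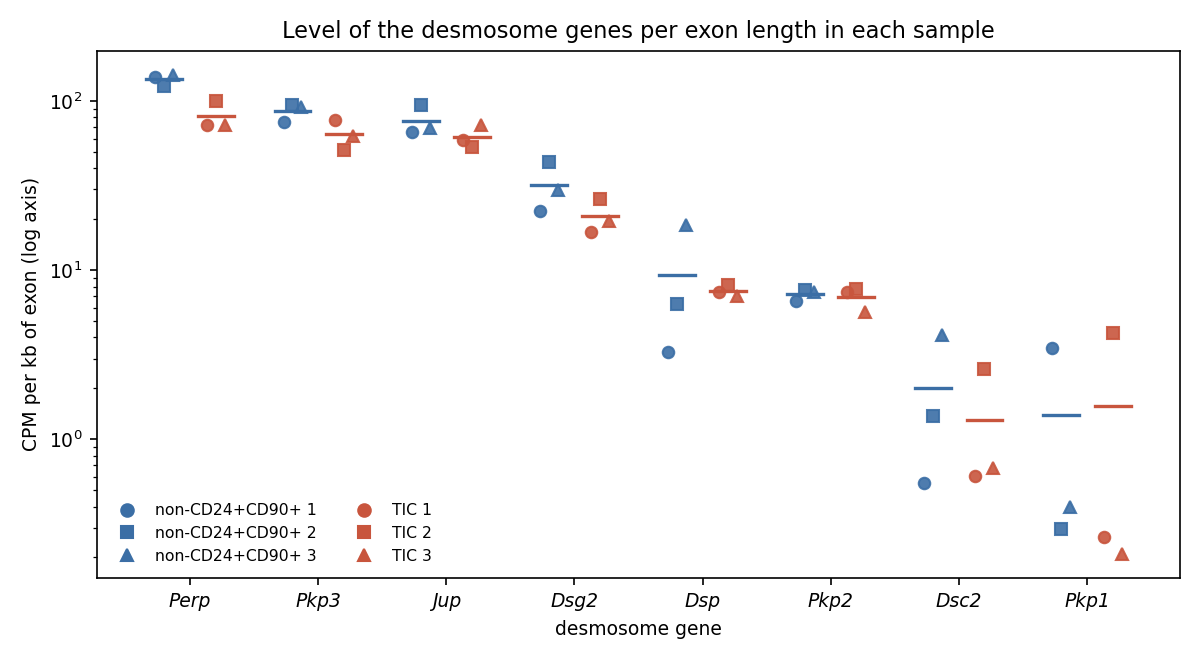
Level of each desmosome gene per exon length (CPM per kb, log axis) in the 3 samples of the other tumor cells (blue) and the 3 TIC samples (red), with symbols for replicates and a line at the group mean. Perp, Pkp3, Jup and Dsg2 lie above 10 CPM per kb in every sample, and Dsc2 and Pkp1 vary most between samples of the same group.

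The desmosomal cadherins were represented almost wholly by desmoglein 2, the desmoglein of simple epithelia. Dsg2 (ENSMUSG00000044393, chromosome 18 of GRCm38, 20558074 to 20604521) had 186, 363 and 245 CPM in the other tumor cells and 139, 219 and 161 CPM in TICs. The lowest 2 values belonged to TICs, but TIC replicate 2 lay above replicate 1 of the other tumor cells, so that the groups overlapped. The log2 fold change was -0.62 with a standard error (SE) of 0.33 and an adjusted p of 0.714 (edgeR's exactTest), and a 95% interval from 0.414-fold to 1.03-fold.

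Desmocollin 2, the partner cadherin, was a low and uneven transcript. Dsc2 (ENSMUSG00000024331, chromosome 18, 20030633 to 20059554) had 20, 64 and 152 counts in the other tumor cells and 29, 118 and 27 counts in TICs. Within each group 1 sample stood above the other two, by 7.45-fold over the lowest in the other tumor cells and by 4.32-fold in TICs. The log2 fold change of -0.64 with an SE of 1.27 and an adjusted p of 1 (edgeR's exactTest) turned to 0.43 without replicate 3 of the other tumor cells, and its 95% interval ran from 0.114-fold to 3.62-fold, so that no difference was detectable with these samples. Of the summed cadherin level per kb, Dsg2 made up 94.1 ± 5.48% in the other tumor cells and 94.7 ± 3.21% in TICs (SD, n = 3), with overlapping samples.

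Plakoglobin sits in desmosomes and in adherens junctions and is also found in endothelial junctions. Jup (ENSMUSG00000001552, chromosome 11, 100368958 to 100397763) had 425, 609 and 444 CPM in the other tumor cells and 378, 345 and 465 CPM in TICs. The groups overlapped, since TIC replicate 3 exceeded 2 of the 3 other samples. Its log2 fold change was -0.31 with an SE of 0.29 and an adjusted p of 0.996 (edgeR's exactTest), and a 95% interval from 0.542-fold to 1.19-fold.

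Among the plakophilins, Pkp3, the widely expressed epithelial form, dominated. Pkp3 (ENSMUSG00000054065, chromosome 7, 141078218 to 141090510) had 271, 342 and 332 CPM in the other tumor cells and 279, 186 and 223 CPM in TICs. TIC replicates 2 and 3 lay below all other samples, and TIC replicate 1 overlapped the other group. The log2 fold change was -0.46 with an SE of 0.29 and an adjusted p of 0.871 (edgeR's exactTest), and a 95% interval from 0.489-fold to 1.09-fold.

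Pkp2, the plakophilin of simple epithelia and of heart muscle, varied least among the other tumor cells. Pkp2 (ENSMUSG00000041957, chromosome 16, 16213318 to 16272712) had 35.3, 40.6 and 39.6 CPM in the other tumor cells and 40.0, 41.3 and 30.2 CPM in TICs. The means were 38.5 ± 2.82 and 37.2 ± 6.05 CPM (SD, n = 3), and the samples were interleaved. Its log2 fold change of -0.05 with an SE of 0.50 and an adjusted p of 1 (edgeR's exactTest) turned to 0.10 without TIC replicate 3, and the 95% interval from 0.488-fold to 1.91-fold did not exclude a change of 1.5-fold in either direction.

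Pkp1, the plakophilin best known from stratified epithelia such as the epidermis, was low in most samples. Pkp1 (ENSMUSG00000026413, chromosome 1, 135871395 to 135919207) had 119, 13 and 14 counts in the other tumor cells and 12, 183 and 8 counts in TICs. A single sample in each group carried most of the counts, replicate 1 of the other tumor cells at 17.4 CPM and TIC replicate 2 at 21.3 CPM, and the other samples lay between 1.06 and 2.0 CPM. The log2 fold change was 0.19 with an SE of 1.54 and an adjusted p of 1 (edgeR's exactTest), and it ranged from -2.53 without TIC replicate 2 to 2.19 without replicate 1 of the other tumor cells.

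Pkp3 held 90.9 ± 2.34% of the plakophilin level per kb in the other tumor cells and 87.8 ± 5.76% in TICs (SD, n = 3). Pkp2 held 7.74, 7.40 and 7.42% in the other tumor cells and 8.79, 12.1 and 8.35% in TICs. Every TIC sample was thus above every other sample in this share, a separation chosen from the shares after their values were seen, and an exact permutation test of 3 against 3 samples cannot fall below p = 0.1.

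Desmoplakin, the plakin that anchors keratin to the plaque, varied widely among the other tumor cells and little among TICs. Dsp (ENSMUSG00000054889, chromosome 13, 38151294 to 38198577), with the upstream sequence shown above, had 31.8, 60.9 and 178 CPM in the other tumor cells and 71.8, 79.2 and 67.6 CPM in TICs. The 3 TIC samples lay within a 1.17-fold range, inside the 5.58-fold range of the other group, and the difference in spread was not tested. The log2 fold change was -0.31 with an SE of 0.51 and an adjusted p of 1 (edgeR's exactTest, 95% interval from 0.403-fold to 1.62-fold), and it turned to 0.65 without replicate 3 of the other tumor cells. That sample had the highest level of Dsp and of Dsc2. The 7 basal or myoepithelial markers summed there to 1253 CPM against 594 to 739 CPM in the other 5 samples, mostly through the basal keratin Krt14, at 723 CPM against 215 to 392 CPM. It was highest in 3 of the 7 markers (Krt14, Krt5 and Myh11), a TIC sample was higher in Krt17, Trp63 and Acta2, and Oxtr was level with TIC replicate 3 at 17.9 CPM. The part of basal cells in the Dsp value was not tested.

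Perp (ENSMUSG00000019851, chromosome 10, 18845020 to 18857073) was the member whose groups did not overlap. It had 270, 239 and 279 CPM in the other tumor cells and 140, 194 and 141 CPM in TICs. Every TIC sample was below every other sample, which held for 1 of the 8 members and for 7.55% of all tested genes, and 0 members had every TIC sample above (7.69% of all genes). The log2 fold change was -0.73 with an SE of 0.30 and an adjusted p of 0.356 (edgeR's exactTest), and a 95% interval for this gene alone from 0.403-fold to 0.902-fold. Leaving out any 1 sample gave log2 fold changes of -0.90 to -0.63, and over the 14 alternative fits the adjusted p-value ranged from 0.205 to 0.866.

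**Figure D2:**
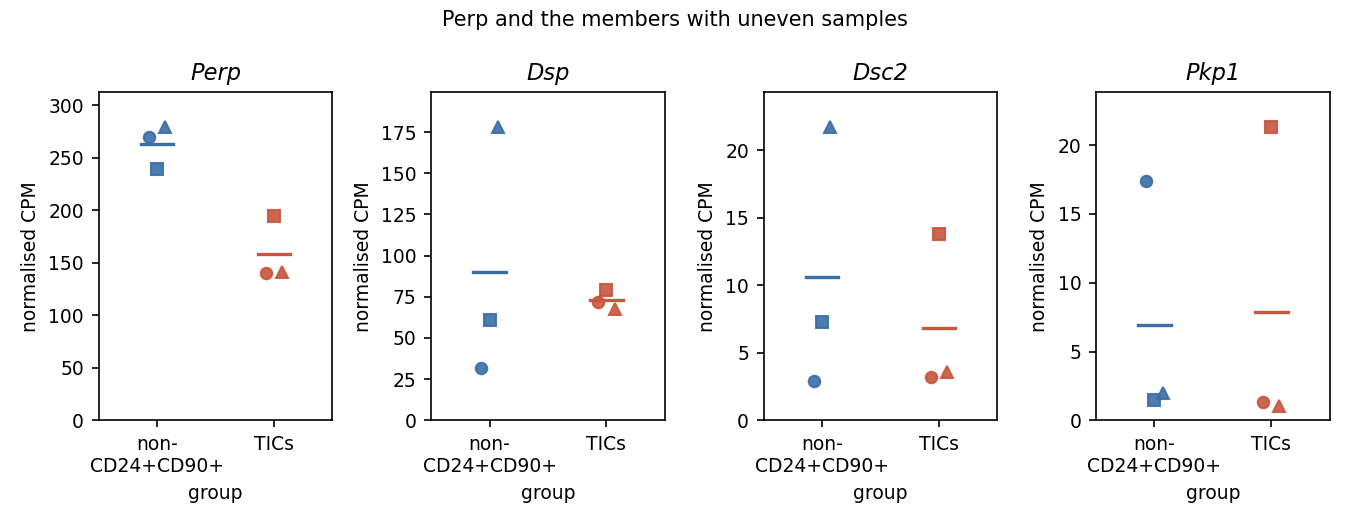
Normalised CPM of Perp, Dsp, Dsc2 and Pkp1 in each sample, with a circle, a square and a triangle for replicates 1 to 3, a line at the group mean and axes from 0. Perp separates the groups at 239 against 194 CPM, whereas Dsp has 1 high sample at 178 CPM, and Dsc2 (21.7 and 13.8 CPM) and Pkp1 (17.4 and 21.3 CPM) have 1 in each group.

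Across the 8 genes, edgeR's exactTest called 0 at an adjusted p-value below 0.1, where it called 1.55% of all tested genes, 1.36% as higher and 0.189% as lower in TICs. The quasi-likelihood test of edgeR called 0 of the 8 genes (0.41% of all genes) and DESeq2 called 0 of the 7 to which it gave an adjusted p, all but Pkp1 (2.58% of all genes). At an unadjusted p below 0.05, each of the 3 tools named 1 member, which was Perp, and exactTest named 7.85% of all genes, 3.11% as lower in TICs. The median log2 fold change of the 8 genes was -0.39, and that of all tested genes was -0.01. A count of 0 among 8 genes does not stand apart from these shares.

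**Figure D3:**
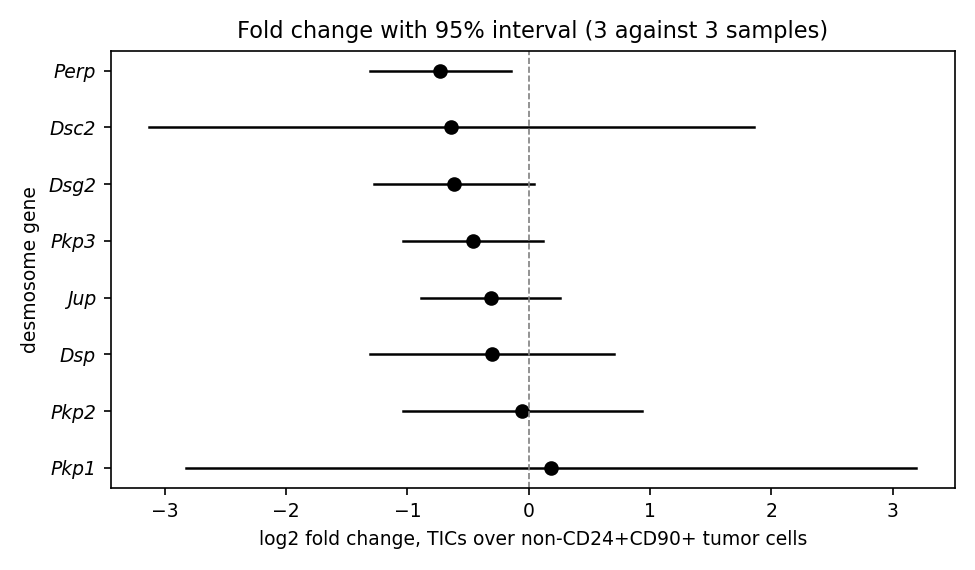
Log2 fold change of each desmosome gene in TICs over the other tumor cells (points) with its 95% interval (bars, 3 against 3 samples, not adjusted for the number of genes). The intervals of all members but Perp include 0, and those of Pkp1 and Dsc2 are the widest.

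The summed level of the 8 genes was lower in every TIC sample. It was 1239, 1663 and 1541 CPM in the other tumor cells and 1053, 1100 and 1092 CPM in TICs, with group means of 1481 ± 218 and 1082 ± 25.3 CPM (SD, n = 3). TICs thus stood at 0.73 of the other group. Jup, Pkp3, Dsg2 and Perp had the highest mean CPM and weighed most in this sum, and its difference between groups was not tested. In bulk samples, fewer cells of a type and less RNA per cell cannot be told apart.

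The level of Epcam was also lower in every TIC sample, without passing the test. Epcam, the epithelial cell adhesion molecule, had 1397, 1539 and 1547 CPM in the other tumor cells and 1254, 1173 and 1115 CPM in TICs, which is 0.79 of the other group (log2 fold change -0.34, SE 0.26, and an adjusted p of 0.955 in edgeR's exactTest). Per 100 CPM of Epcam, the 8 genes summed to 98.8 ± 9.71 CPM in the other tumor cells and to 91.9 ± 7.17 CPM in TICs (SD, n = 3), and the samples of both groups overlapped. Per 100 CPM of Epcam, Krt8 and Krt18 together, the order of the means was the opposite, at 32.5 ± 5.28 and 35 ± 3.62 CPM, again with overlap. On the Epcam scale, chosen after the data were seen and without a test, the log2 ratio of Perp was -0.39 with overlapping samples, that of Dsg2 was -0.26 and that of Pkp3 was -0.12, while Jup at 0.04, Dsp at 0.07 and Pkp2 at 0.29 lay above 0, Pkp2 with every TIC sample above the others. The direction of Jup, Dsp and Pkp2 therefore depended on whether the whole library or Epcam set the scale.

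Markers of several non-epithelial cell types were higher in sum in TICs. The 6 fibroblast markers summed to between 2041 and 2481 CPM in the other tumor cells and to between 4823 and 8045 CPM in TICs, with 3 of 5 tested genes called as higher (the collagen genes Col1a1 and Col3a1 and the matrix proteoglycan gene Dcn, with log2 fold changes of 1.54, 1.66 and 1.48 and adjusted p-values of 0.000122, 0.000662 and 0.00799) and Pdpn at 0 counts in 5 samples. Pericyte or smooth muscle markers summed to between 521 and 630 CPM against 915 to 1352 CPM in TICs, with 1 of 6 called by edgeR's exactTest (Rgs5, a regulator of G protein signalling, log2 fold change 1.45, adjusted p = 0.000466). Of the 6 genes, 4 were higher in every TIC sample. The smooth muscle genes Acta2 and Myh11, which are also on the basal or myoepithelial list, were level, with log2 fold changes of -0.01 and 0.07 and overlapping samples. Endothelial markers summed to between 126 and 139 CPM against 172, 262 and 591 CPM in TIC replicates 1 to 3. All 7 had log2 fold changes above 0 with 0 called, and 1 of the 7 was higher in every TIC sample (7.69% of all genes). TIC replicate 3 had the highest sum, with Kdr at 177 CPM against 32.8 and 25.8 CPM in TIC replicates 1 and 2. Leukocyte markers summed to between 8.01 and 29.4 CPM against 32.1 to 85.5 CPM in TICs, where Lyz2, a macrophage lysozyme, made up 62.0, 75.3 and 28.0 CPM. Lyz2 was called as higher (log2 fold change 2.68, adjusted p = 0.0125), whereas the other tested marker, the macrophage gene Cd68, had 10.8 ± 6.94 CPM in the other tumor cells and 8.68 ± 6.88 CPM in TICs with overlapping samples (log2 fold change -0.31). Cd3e and Adgre1 were at 0 counts in all samples, and Ptprc, which encodes CD45, had 33 counts in 1 sample and none in the other 5. Of the adipocyte list Fabp4, a lipid carrier also made by endothelial cells, was called as higher (192, 494 and 1225 CPM in TICs, log2 fold change 2.75, adjusted p = 0.000466, and 1.88 without TIC replicate 3), while Adipoq, Plin1 and Lep were at 0 counts in all samples. The lymphatic list had 0 of 2 tested genes called. The part of these cells in the lower desmosome sum was not tested. The calls of Dcn and Lyz2 were lost in the quasi-likelihood test (adjusted p = 0.105 and 0.138). That of Dcn was also lost when replicate 2 or 3 of the other tumor cells was left out (adjusted p = 0.132 and 0.124), and that of Lyz2 without replicate 3 of that group or without TIC replicate 2 (adjusted p = 0.128 and 0.224).

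**Figure D4:**
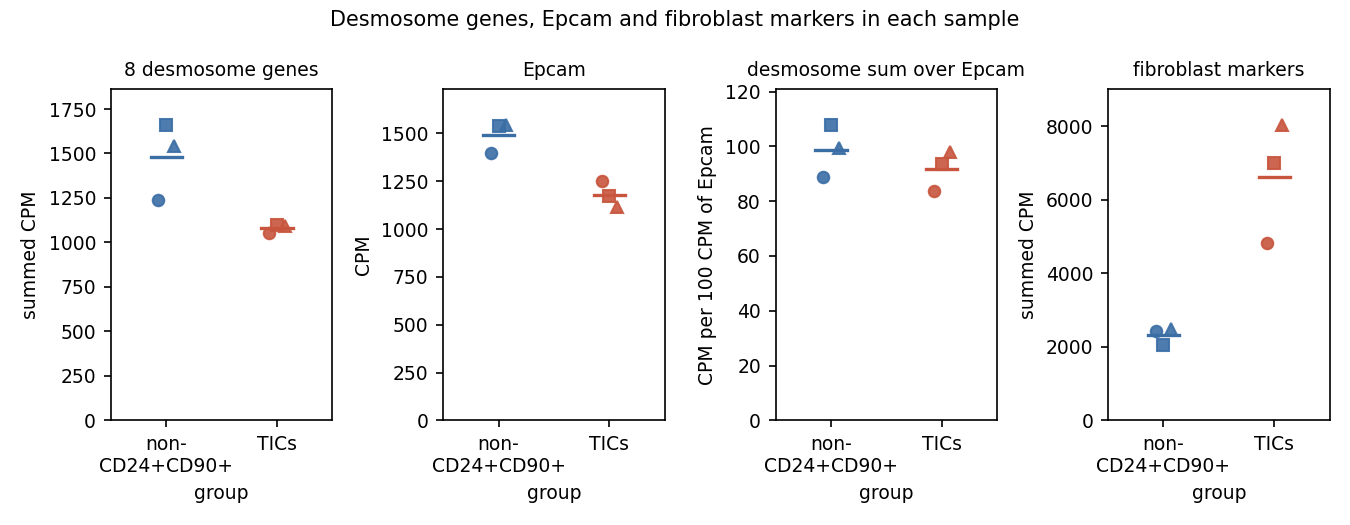
Summed CPM of the 8 desmosome genes, CPM of Epcam, the desmosome sum per 100 CPM of Epcam, and summed CPM of the 6 fibroblast markers in each sample, with a line at the group mean and axes from 0. The desmosome sum and Epcam are lower in every TIC sample, their ratio overlaps between groups, and the fibroblast markers are higher in every TIC sample.

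The remaining desmosome genes were mostly not detected. The desmogleins of stratified epithelia Dsg1a, Dsg1b, Dsg1c, Dsg3 and Dsg4 and the desmocollin Dsc1 had 0 counts in all 6 samples, where 3 counts correspond to at most 0.442 CPM. Dsc3, the desmocollin of basal layers, had 1, 45 and 0 counts in the other tumor cells and 34, 35 and 0 counts in TICs, a pattern of presence and absence within both groups. Pkp4, an armadillo relative found at several kinds of junction, had 110, 56.5 and 107 CPM in the other tumor cells and 41.2, 38.7 and 83.9 CPM in TICs (log2 fold change -0.74, SE 0.44, and an adjusted p of 0.813 in edgeR's exactTest), and its groups overlapped. Of these 8 genes 2 could be tested and 0 were called.

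The keratins that desmosomes anchor lay lower in sum in every TIC sample, at 2351 to 3012 CPM against 3930 to 4261 CPM, with 5 of 6 log2 fold changes below 0 and 0 called by exactTest. Krt18, a luminal type I keratin, had 2657 ± 161 CPM in the other tumor cells and 1645 ± 153 CPM in TICs (SD, n = 3). Its log2 fold change was -0.69 (SE 0.26), with an adjusted p = 0.296 from edgeR's exactTest and 0.00181 from DESeq2. Every TIC sample was below every other sample in Krt18 and in its partner Krt8. Krt14, the basal keratin, had 488 ± 205 CPM against 279 ± 72.2 CPM in TICs, with overlapping samples (adjusted p = 0.423 from edgeR's exactTest).

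Of the other junction families, 0 of 9 tested adherens junction genes and 0 of 11 tight junction genes were called by exactTest, with median log2 fold changes of 0.05 and -0.33. Cdh1, which encodes E-cadherin, had 862, 820 and 663 CPM in the other tumor cells and 470, 454 and 512 CPM in TICs. Every TIC sample was below every other sample, with a log2 fold change of -0.71 (SE 0.27), an adjusted p = 0.297 from edgeR's exactTest and 0.0257 from DESeq2.

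The other plakins, the epithelial regulators and the relatives of PERP also held no called gene. The 5 plakins and linkers had 3 log2 fold changes below 0 and a median of -0.28, and Dst, which encodes the hemidesmosome linker dystonin, was higher in every TIC sample, at 199 ± 26.8 against 153 ± 6.86 CPM (SD, n = 3, adjusted p = 0.953 from edgeR's exactTest). Of 10 tested epithelial transcription and splicing regulators, 7 had log2 fold changes below 0 and the median was -0.23, with Grhl3 at 0 counts in all samples. Trp63, which encodes p63, had 40.4 ± 10.1 CPM in the other tumor cells and 39.2 ± 22.2 CPM in TICs. The 5 tetraspan relatives of Perp had 2 log2 fold changes below 0 and a median of 0.50. Tmem47 lay below in every TIC sample, at 21.2 ± 6.37 against 55.5 ± 14.8 CPM (adjusted p = 0.297 from edgeR's exactTest), and Emp3 above, at 55.4 ± 3.97 against 18.9 ± 16.7 CPM (adjusted p = 0.41 from edgeR's exactTest). The 4 cadherins of other tissues had a median of 1.21 and 0 called. Luminal markers summed to between 7755 and 9090 CPM in the other tumor cells and to 6946, 7493 and 5000 CPM in TIC replicates 1 to 3. Csn3, among the most abundant genes of this list, was level, at 2286 ± 241 and 2334 ± 878 CPM with overlapping samples (log2 fold change 0.03). Among luminal markers 6 of 8 and among basal markers 3 of 7 log2 fold changes were below 0, with medians of -0.41 and 0.07 and 0 called.

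**Figure D5:**
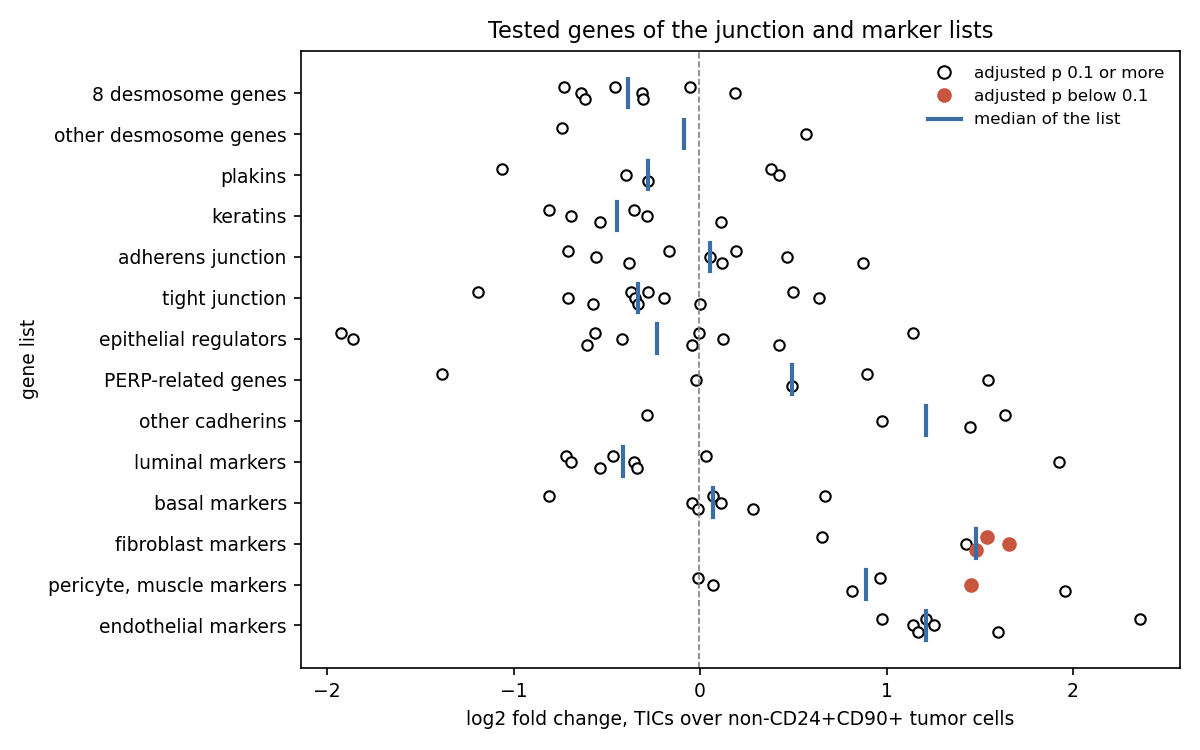
Log2 fold changes in TICs over the other tumor cells of the tested genes of each list (open points, not called; red points, adjusted p below 0.1 in edgeR's exactTest), with a blue line at each list's median and a dashed line at the median of all tested genes, -0.01. The desmosome genes have a median of -0.39, and the keratins, the luminal markers and the tight junction genes lie similarly low. The medians of the fibroblast, pericyte or smooth muscle, and endothelial markers lie to the right. Those of the other cadherins (1.21) and the PERP-related genes (0.50) do so too.

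Over the 6 samples each member had closer matches among the other genes tested than among the other members. The members are few among the 12191 genes ranked, so this outcome was nearly fixed in advance and does not show that the members were unlike. No place expected by chance was computed. Likeness was measured as the root mean square difference between log2 CPM values centred on each gene's mean, as a description over samples that share 2 groups. The closest members were Jup and Pkp3, at 0.235, with Pkp3 in place 294 for Jup and Jup in place 295 for Pkp3. For Perp the nearest member was Dsg2 at 0.351, in place 765 of 12191 genes, and for Dsp it was Dsc2 at 0.663, in place 992. The closest place of any member was that of Dsp for Dsc2, at 80. The 2 genes nearest to each member were Lmo4 and Gm6142 for Perp, Mtf2 and Psma1 for Dsg2, Ncoa6 and Eif4e2 for Pkp3, Cdc42se1 and Atp1b3 for Jup, Zmynd8 and Mprip for Pkp2, Ten1 and Cnp for Dsp, Acad12 and Rgs20 for Dsc2, and Gm14277 and Sbno2 for Pkp1. The distances of these nearest genes ranged from 0.0603 for Pkp2 to 0.489 for Pkp1.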

How the data were processed

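Per the submitters' processing notes and the study's methods, adapter and quality trimming used Trimmomatic 0.32, alignment to GRCm38 used STAR 2.4.0, and multiply mapped reads were dropped with SAMtools 1.1 before HTSeq counting. The authors deposited these counts per Ensembl gene as raw values. The annotation release and the strand setting are not given in the sources used here, so that antisense transcripts overlapping Dsp (Gm10129) and Dsg2 (Gm16090, 0 counts) could not be separated by strand. The filter retained 12192 genes that exceeded 1 CPM in 3 samples or more. They were normalised by TMM and compared with exactTest in edgeR 4.0.16 (R 4.3.3), the test of the study's methods, two-sided, with tagwise dispersions and Benjamini-Hochberg adjustment over all tested genes at 0.1. Standard errors and 95% intervals came from the negative binomial fit. The common dispersion over all tested genes was 0.678, and its square root, the biological coefficient of variation, was 0.823. The tests and intervals used the tagwise dispersions instead, which among the members ran from 0.0608 for Jup to 1.68 for Pkp1. Symbols, coordinates and exon lengths were from GENCODE M21 (40254 genes matched). The members and lists were chosen with earlier results of these data known. The genes named were the 8 members, the called and 3 most abundant genes of each list, genes at 0 counts, and the 2 genes nearest to each member. Emp3, Trp63, Pdpn and Ptprc were added after their values were seen. The alternatives were the quasi-likelihood test, DESeq2 1.42.0, other size factors, filters and dispersions, a threshold of 0.05 and each sample left out. The libraries are described as biological triplicates from pooled mice, and replicates were numbered in accession order. The labels name no batch. The procedure was tested on simulated data, where some changed genes were missed and some calls were false. Cd68, Krt17, Oxtr and Myh11 were also named after their values were seen. Limits from 3 counts cover counting error only.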

Additional observations from a re-analysis of the deposited data

How the results depend on the processing

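No desmosome gene was called under any of the 15 alternatives. The total of called genes, 189 in exactTest, was 50 in the quasi-likelihood test, 306 in DESeq2, 112 without a filter on low counts and 116 at an adjusted p below 0.05, and 72 to 323 with each sample left out (lowest when replicate 3 of the other tumor cells was absent, highest without TIC replicate 1). The 6 genes called among the fixed lists became 4 to 10 with each sample left out, most without TIC replicate 1. The log2 fold changes of Dsg2, Pkp3, Jup and Perp kept their direction in all 14 alternative fits. With Epcam as the scale, chosen after seeing the data, Jup moved to 0.04. With 1 sample left out, 4 members turned sign, Dsp ranging from -0.70 to 0.65, Dsc2 from -1.65 to 0.43, Pkp1 from -2.53 to 2.19 and Pkp2 from -0.13 to 0.10. The turned values were Dsp 0.65, Dsc2 0.43 and Pkp1 -0.25 when replicate 3 of the other tumor cells was left out, Pkp1 -0.29 when their replicate 2 was, Pkp1 -2.53 without TIC replicate 2 and Pkp2 0.10 without TIC replicate 3. The cause was not tested. Pkp1 could not be fitted with at least 10 counts in every sample. DESeq2 gave 343 genes no adjusted p. No paired analysis was run, because the labels give the groups no shared replicate numbers. Both groups may have been sorted from the same mice, which the sources do not settle. A legend in the study's supplement covers both groups and gives a single total of mice, without saying that the groups shared them. The tests treated all samples as independent, so the p-values and standard errors take no account of such a pairing. Dsc2 and Pkp1 had fewer than 100 counts in some samples and also the widest spread between samples, and the other 6 members had at least 100 counts in each.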
